A study of Mus musculus with 12 samples.

Results

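The genes described here act while a cell divides: they start mitosis, attach chromosomes to the spindle, hold sister chromatids together and then release them, and split the cell in 2. They were given as 50 named genes, and 1 probe set was taken for each, the one with the highest mean signal over the 12 samples among those the platform annotation ties to that gene alone. On the arrays 49 of the 50 could be read, out of 18193 genes with such a probe set. By their mean over the 12 samples all 49 lay above the filter on dim probe sets that left 12600 genes to test. Ccnb1 (cyclin B1) was matched by none of the probe sets tied to 1 gene and was not analysed here.

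The samples were total RNA from the central nervous system of mice, read on Affymetrix arrays, and the tissue is labelled brain in one place and, in another, brain with hindbrain and spinal cord. There were 4 groups of 3 samples: wild-type mice at postnatal day 0 (P0), mice without NR3B at P0, wild-type mice at postnatal day 5 (P5) and mice without NR3B at P5. NR3B is taken to be the product of Grin3b, a subunit of NMDA-type glutamate receptors. The strain, the allele, the deleted part of the gene and whether each sample came from a separate animal are not given in the sources used here, so the p-values rest on sample-to-sample spread that may be partly technical. The labels name no batch, and any step that was done separately for P0 and P5 samples cannot be told apart from age.

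Cells in the hindbrain keep dividing after birth. In the mouse cerebellum, precursors of granule cells in the external granular layer multiply during the first postnatal weeks, and glial precursors divide throughout the tissue, while most neurons of brainstem and spinal cord have already left the cell cycle. Transcripts of mitotic genes build up late in the cell cycle and are low in cells that have left it, so in whole tissue they are commonly read as a sign of how many cells are dividing. In bulk samples a change in the number of dividing cells and a change in RNA per cell cannot be told apart.

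Many promoters of mitotic genes carry a short element called the cell cycle genes homology region, with the core letters TTTGAA, downstream of CCAAT boxes, which are bound by NF-Y. Through this element the DREAM complex holds the genes silent in resting cells, and complexes with B-Myb and FoxM1 activate them late in the cycle. RefSeq promoter windows of assembly GRCm38.p6 run from 250 bases before to 50 bases after the gene's start, and they were at hand for 40 of the 50 genes. The other 10 are Aurkb, Ccna2, Cdc25c, Esco2, Foxm1, Incenp, Kif20a, Smc4, Spc24 and Tpx2. The stretch from 120 bases before to 30 bases after the start is shown for 8 genes, chosen by hand and not by a rule. They are Cdc20, Ttk, Cenpa, Top2a, Ube2c and Ncapg, whose rise is described with values in every sample, and for contrast Bub3, which rose little, and Birc5, which rose strongly with neither motif in its window. Sgo1, which rose most in wild type, and Nusap1 had windows without TTTGAA and are not shown. Letters are in capitals where they match, on either strand, the CCAAT box, the element TTTGAA or its variant form TTCGAA, and each sequence is written 5′ to 3′ on the strand of the gene.
Cdc20: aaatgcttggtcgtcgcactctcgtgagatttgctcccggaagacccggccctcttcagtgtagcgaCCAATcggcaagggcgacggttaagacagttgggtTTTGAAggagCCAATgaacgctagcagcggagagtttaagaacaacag
Ttk: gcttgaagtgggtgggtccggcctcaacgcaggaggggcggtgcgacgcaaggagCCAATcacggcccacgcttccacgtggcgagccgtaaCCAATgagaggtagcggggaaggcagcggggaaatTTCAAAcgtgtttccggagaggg
Cenpa: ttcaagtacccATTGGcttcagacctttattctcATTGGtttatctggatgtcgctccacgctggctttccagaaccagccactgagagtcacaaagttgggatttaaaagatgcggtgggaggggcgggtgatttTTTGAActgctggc
Top2a: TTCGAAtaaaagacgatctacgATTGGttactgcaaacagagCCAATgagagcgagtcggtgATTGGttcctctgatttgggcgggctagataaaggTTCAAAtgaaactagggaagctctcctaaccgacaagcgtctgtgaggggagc
Ube2c: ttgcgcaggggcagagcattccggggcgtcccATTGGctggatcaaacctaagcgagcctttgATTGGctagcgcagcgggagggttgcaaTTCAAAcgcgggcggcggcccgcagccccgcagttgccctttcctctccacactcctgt
Ncapg: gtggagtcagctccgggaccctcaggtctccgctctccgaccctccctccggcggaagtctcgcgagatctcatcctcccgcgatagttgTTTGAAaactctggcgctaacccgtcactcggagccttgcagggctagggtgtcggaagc
Bub3: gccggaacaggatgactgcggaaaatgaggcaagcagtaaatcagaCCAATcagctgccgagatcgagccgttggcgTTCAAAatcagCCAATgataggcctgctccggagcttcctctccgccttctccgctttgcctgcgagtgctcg
Birc5: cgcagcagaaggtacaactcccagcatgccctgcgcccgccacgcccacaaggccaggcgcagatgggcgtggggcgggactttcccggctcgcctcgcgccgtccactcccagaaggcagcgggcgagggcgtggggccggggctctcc

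In GRCm38.p6 these stretches lie at chr4:118437314-118437463 (minus strand) for Cdc20, chr9:83834569-83834718 (plus strand) for Ttk, chr5:30666766-30666915 (plus strand) for Cenpa, chr11:99024160-99024309 (minus strand) for Top2a, chr2:164769809-164769958 (plus strand) for Ube2c, chr5:45669805-45669954 (plus strand) for Ncapg, chr7:131560250-131560399 (plus strand) for Bub3 and chr11:117849117-117849266 (plus strand) for Birc5. Each holds the region before the gene and the first bases of its first exon. Counting the first base of the gene as 1 and the base before it as -1, TTTGAA began at -18 in Cdc20, at 8 in Ttk, at 17 in Cenpa, at -23 in Top2a, at -29 in Ube2c, at -30 in Ncapg and at -43 in Bub3. In Cdc20 the CCAAT boxes began at -53 and -8, and in Ttk at -65 and -28.

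Over the whole windows, TTTGAA on either strand was present in 26 of the 40 promoters (65%), against 11.1% of the 10167 genes tested on the arrays that had a window and 18.1% of all 27025 windows. The difference was wider close to the start: 24 of the 40 (60%) held TTTGAA beginning within 50 bases of it, against 2.82% of the tested genes. The variant TTCGAA stood in 4 (10%, against 2.07%) and CCAAT in 30 (75%, against 38.5%), and 25 (62.5%, against 5.32%) held CCAAT together with either form. In Cdca8 a match to TTTGAA and a match to the CCAAT box shared a letter. Of the genes of DNA replication, which act earlier in the cycle, 4 of 28 (14.3%) held TTTGAA and 19 of 28 (67.9%) held CCAAT as counted in the same windows. Among 28 further genes of the spindle, centrosome and cytokinesis 18 (64.3%) held TTTGAA. Counted in the 250 bases before the start alone, 12 of the 40 held it (30%, against 9.9% of the tested genes). Ccnb2, Ect2 and Smc2 among them held a further match inside the gene. In those of the 26 with no match before the start, it lay inside the gene or, in Prc1, across its start. Within the mitotic genes, the 26 with TTTGAA had a median rise from P0 to P5 of 1.68 in wild type and the 13 others with a window and a probe set 1.59, both as log2 differences. Among the 13 were Bub1 and Sgo1, which held the variant TTCGAA. The motif counts are of letters in a fixed window and do not show that a factor binds there.

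Nearly every one of these genes was higher at P5 than at P0, in both genotypes. In wild type 48 of 49 rose and 0 fell, where 10.8% of all 12600 genes tested rose and 8.56% fell. In knockout 44 of 49 rose and 0 fell, where 5.53% of all genes rose and 4.95% fell. The 44 rose in both genotypes, as did 4.43% of all genes. Cdc25c, Sgo1, Esco2 and Ndc80 are counted among the 49 although dim at P0, since their P5 levels carried their means over the filter. A gene is said to rise or fall where its Benjamini-Hochberg adjusted p from limma, over all genes tested, is under 0.05. The median over the 49 genes was a log2 difference of 1.61 in wild type (3.06-fold) and 1.57 in knockout (2.97-fold), beside 0.03 and -0.03 over all genes tested. Differences are on the scale log2(signal + 16) after quantile normalization, which understates the change of dim genes. In 43 of 49 genes the wild-type difference was at least 1, and in 40 of 49 the knockout difference was.

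The samples of the 2 ages hardly overlapped. For 45 of the 49 genes every P5 sample, of either genotype, lay above every P0 sample, as was so for 7.44% of all genes. The exceptions were Foxm1, Bub3, Pttg1 and Sgo2a. The median level of the 49 genes was 9.70, 9.99 and 9.79 in the P0 wild-type samples and 9.64, 10.16 and 10.12 in the P0 knockout samples. At P5 it was 11.43, 11.45 and 11.55 in wild type and 11.54, 11.87 and 11.76 in knockout (log2 level). Gene by gene the P0 samples spread more than the P5 samples: the median gene of this set had a within-group SD of 0.333 (wild type) and 0.318 (knockout) at P0, against 0.116 and 0.17 at P5. Over all tested genes these SDs were 0.269, 0.21, 0.119 and 0.133.

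**Figure D1:**
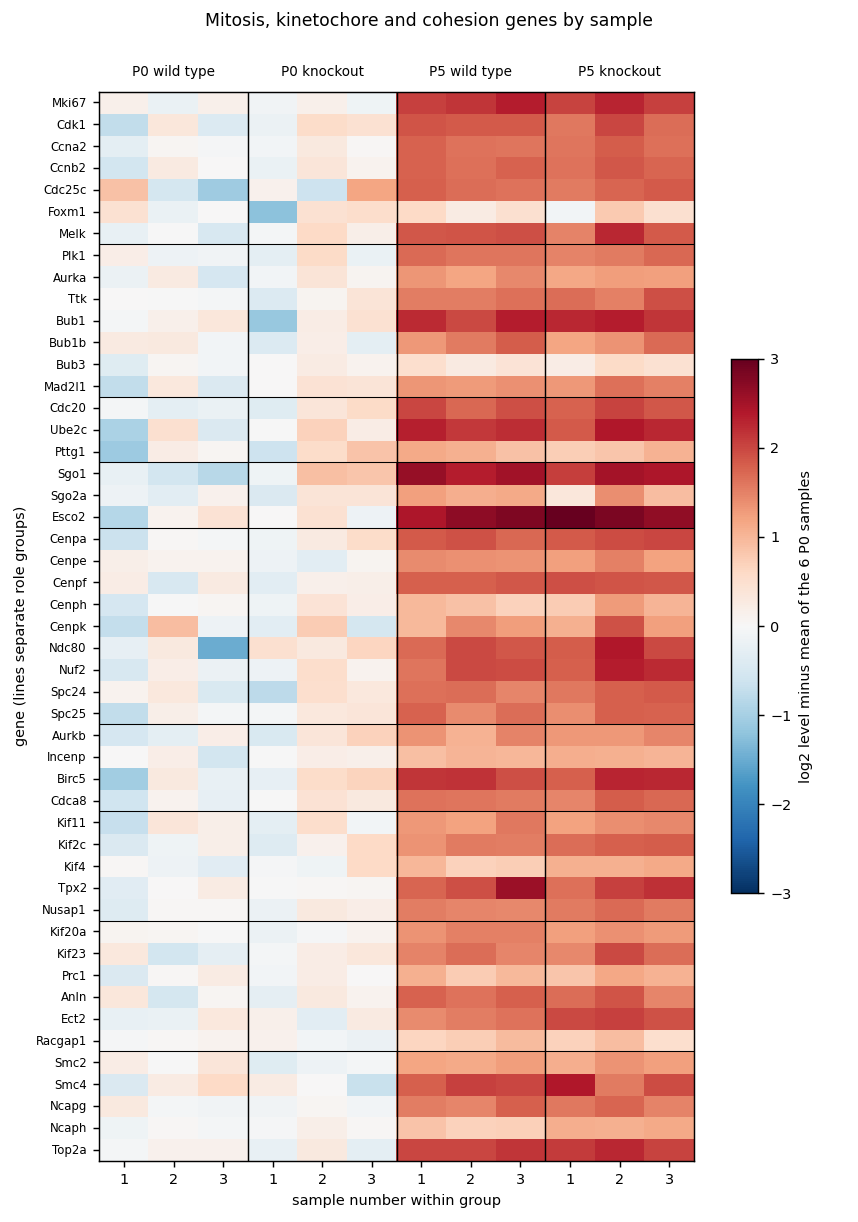
Heat map of the 49 genes (rows, grouped by role) in the 12 samples (columns, 3 per group). Colour gives the log2 level minus the gene's mean over the 6 P0 samples, from -3 (blue) to 3 (red). The 6 P5 columns are red for nearly every gene, and Foxm1, Bub3 and Racgap1 are among the palest rows there.

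The entry into mitosis is driven by Cdk1, the kinase that cyclins A and B activate. Of the 7 genes of entry and mitotic transcription that were read, 6 rose in wild type and 5 in knockout, with median differences of 1.93 and 1.61. Mki67, which encodes the proliferation antigen Ki-67 that coats mitotic chromosomes, had log2 levels of 11.65, 11.30 and 11.65 (P0 wild type), 11.41, 11.66 and 11.37 (P0 knockout), 13.56, 13.64 and 13.86 (P5 wild type) and 13.54, 13.79 and 13.55 (P5 knockout). All 6 P5 samples stood clear of all 6 P0 samples, and the rise was 2.15 (SE 0.14, adjusted p = 2.02e-06) in wild type and 2.15 (SE 0.14, adjusted p = 2.05e-06) in knockout. Ccna2, cyclin A2, had levels of 10.64, 11 and 10.91 (P0 wild type), 10.86, 11.22 and 10.98 (P0 knockout), 12.71, 12.57 and 12.55 (P5 wild type) and 12.55, 12.75 and 12.59 (P5 knockout). It rose by 1.76 (SE 0.14, adjusted p = 6.34e-06) in wild type and by 1.61 (SE 0.14, adjusted p = 1.37e-05) in knockout, with no overlap between the ages.

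Cdk1 itself lay between 10.22 and 11.52 at P0 and between 12.55 and 12.96 at P5, and rose by 2.13 (SE 0.25, adjusted p = 9.88e-05) in wild type and 1.48 (SE 0.25, adjusted p = 0.00199) in knockout. Ccnb2, cyclin B2, lay between 9.77 and 10.69 at P0 and between 11.95 and 12.19 at P5. Melk, a kinase of dividing progenitors, lay between 9.09 and 10.16 at P0 and between 11.05 and 11.83 at P5. Cdc25c, the phosphatase that removes the inhibitory phosphates from Cdk1, had levels of 8.92, 7.52 and 6.98 (P0 wild type), 8.18, 7.42 and 9.22 (P0 knockout), 9.83, 9.71 and 9.66 (P5 wild type) and 9.61, 9.79 and 9.89 (P5 knockout). Its P0 values were dim and scattered, its P5 values were close together, and its difference was 1.93 (SE 0.47, adjusted p = 0.0136) in wild type and 1.49 (SE 0.47, adjusted p = 0.062) in knockout, so the first passed the threshold and the second did not. The knockout difference passed in 8 of 23 alternatives, among them the arrays as deposited (adjusted p = 0.0474), only the knockout samples in the fit (adjusted p = 0.0481), array weights (adjusted p = 0.0117) and the fits without P0 knockout sample 3 (adjusted p = 0.0223) or without any 1 of the P0 wild-type samples (adjusted p = 0.0223, 0.0474 and 0.0452). The wild-type call was lost without P0 wild-type sample 3 (adjusted p = 0.0613) or P5 wild-type sample 1 (adjusted p = 0.051).

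Foxm1, the transcription factor that switches on many of the other genes, was the one gene of the 49 that did not pass in either genotype. Its levels were 9.97, 9.31 and 9.54 (P0 wild type), 8.28, 9.98 and 10.04 (P0 knockout), 10.11, 9.77 and 9.99 (P5 wild type) and 9.44, 10.31 and 10 (P5 knockout), and the ages overlapped. The difference was 0.35 (SE 0.39, adjusted p = 0.55) in wild type and 0.48 (SE 0.39, adjusted p = 0.504) in knockout. That probe set was chosen for its mean signal, and the other Foxm1 probe sets above the filter did not read alike: one with a mean level of 8.95 differed by 2.05 in wild type and 1.47 in knockout, and one with a mean level of 9.04 by 0.38 and 0.24. With the mean over its probe sets above the filter, Foxm1 was at 0.93 in wild type (adjusted p = 0.0328). Without P0 knockout sample 1, whose level was 8.28, the knockout difference was -0.10.

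Mitotic kinases and the spindle checkpoint, which delays anaphase until every chromosome is attached, held 7 genes. All 7 rose in wild type and 6 in knockout, with medians of 1.6 and 1.57. Ttk, the checkpoint kinase also called Mps1, had levels of 9.38, 9.36 and 9.32 (P0 wild type), 8.97, 9.46 and 9.76 (P0 knockout), 10.92, 10.91 and 11.03 (P5 wild type) and 11.06, 10.89 and 11.30 (P5 knockout). Its 3 P0 wild-type samples lay within 0.1 of each other, and it rose by 1.6 (SE 0.19, adjusted p = 0.000159) in wild type and 1.69 (SE 0.19, adjusted p = 0.000128) in knockout. Plk1, the polo-like kinase of centrosome maturation and cytokinesis, had levels of 9.47, 9.11 and 9.17 (P0 wild type), 8.98, 9.84 and 9.07 (P0 knockout), 10.98, 10.87 and 10.89 (P5 wild type) and 10.77, 10.83 and 11 (P5 knockout). It rose by 1.66 (SE 0.22, adjusted p = 0.000272) and 1.57 (SE 0.22, adjusted p = 0.00047) in the same order, and the P5 samples of both genotypes fell within 10.77 to 11.

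Bub1, a kinase that marks centromeres and recruits shugoshin, had the largest knockout rise of this group, 2.40 (SE 0.31, adjusted p = 0.000312). In wild type it rose by 2.05 (SE 0.31, adjusted p = 0.000852). Its levels lay between 8.21 and 9.80 at P0 and between 11.33 and 11.69 at P5. A dimmer Bub1 probe set above the filter, with a mean level of 8.74, differed by only 0.56 in wild type and 0.49 in knockout. Aurka, the spindle pole kinase Aurora A, lay between 9.22 and 10.11 at P0 and between 10.87 and 11.16 at P5. Bub1b, the checkpoint protein BubR1, lay between 9.24 and 9.95 and then between 10.83 and 11.46. Mad2l1, the checkpoint protein that captures Cdc20, lay between 10.47 and 11.65 and then between 12.49 and 12.87. In each of these 4 genes the lowest P5 sample was above the highest P0 sample.

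Bub3, the checkpoint scaffold that is also present outside mitosis, moved least of this group. Its levels were 13.47, 13.88 and 13.75 (P0 wild type), 13.84, 14.07 and 13.93 (P0 knockout), 14.32, 14.10 and 14.24 (P5 wild type) and 14.05, 14.40 and 14.27 (P5 knockout). The difference was 0.52 (SE 0.13, adjusted p = 0.0179) in wild type and 0.29 (SE 0.13, adjusted p = 0.191) in knockout, where it did not pass, and P5 knockout sample 1 lay just below P0 knockout sample 2. The wild-type call was lost with only the wild-type samples in the fit (adjusted p = 0.0586), without P0 wild-type sample 1 (0.0656), P5 wild-type sample 1 (0.0782) or P5 wild-type sample 3 (0.0623). With the mean over its probe sets the wild-type difference was 0.04 (adjusted p = 0.873), and a second bright probe set, with a mean level of 12.16, differed by -0.05 in wild type and -0.18 in knockout.

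The anaphase promoting complex ends mitosis by tagging cyclin B and securin for destruction. Its activator Cdc20 had levels of 11.15, 10.93 and 11.01 (P0 wild type), 10.86, 11.57 and 11.78 (P0 knockout), 13.22, 12.95 and 13.14 (P5 wild type) and 12.99, 13.24 and 13.08 (P5 knockout), and it rose by 2.08 (SE 0.19, adjusted p = 2.29e-05) in wild type and 1.70 (SE 0.19, adjusted p = 0.000117) in knockout. Ube2c, the ubiquitin-conjugating enzyme that works with the complex, had levels of 9.70, 11.13 and 10.21 (P0 wild type), 10.63, 11.33 and 10.88 (P0 knockout), 12.99, 12.76 and 12.87 (P5 wild type) and 12.49, 13.06 and 12.90 (P5 knockout). P0 wild-type sample 1 was its lowest sample, P5 samples were all above 12.4, and the rise was 2.52 (SE 0.29, adjusted p = 9.79e-05) in wild type and 1.87 (SE 0.29, adjusted p = 0.00118) in knockout. Pttg1 (securin), the inhibitor of separase, had levels of 12.44, 13.75 and 13.60 (P0 wild type), 12.92, 14.08 and 14.39 (P0 knockout), 14.66, 14.60 and 14.41 (P5 wild type) and 14.26, 14.36 and 14.57 (P5 knockout). P0 knockout sample 3 reached the P5 range, and the difference was 1.29 (SE 0.35, adjusted p = 0.0216) in wild type and 0.60 (SE 0.35, adjusted p = 0.316) in knockout, so securin passed in wild type and not in knockout, with its interaction not past the threshold. That call was lost without P0 wild-type sample 1 (0.88, adjusted p = 0.0906), without P0 wild-type samples 1 and 2 together (0.96, adjusted p = 0.0983) and without P5 wild-type sample 1, 2 or 3 (adjusted p = 0.0728, 0.0673 and 0.0514).

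Cohesion genes rose in 3 of 3 cases in wild type, by 1.28 to 3.04, and in 2 of 3 in knockout. Sgo1, shugoshin 1, which protects cohesin at centromeres until anaphase, had levels of 8.25, 7.93 and 7.64 (P0 wild type), 8.34, 9.39 and 9.32 (P0 knockout), 11.10, 10.84 and 11 (P5 wild type) and 10.56, 10.98 and 10.90 (P5 knockout). Its rise of 3.04 (SE 0.27, adjusted p = 1.64e-05) in wild type, or 8.22-fold, was the highest of the 49 genes, and in knockout it rose by 1.80 (SE 0.27, adjusted p = 0.000995). Esco2, the acetyltransferase that locks cohesin onto replicated DNA, had levels of 7.11, 8.09 and 8.40 (P0 wild type), 7.98, 8.44 and 7.82 (P0 knockout), 10.40, 10.65 and 10.77 (P5 wild type) and 11, 10.80 and 10.63 (P5 knockout), and rose by 2.74 (SE 0.30, adjusted p = 7.2e-05) in wild type and 2.73 (SE 0.30, adjusted p = 0.000108) in knockout. The P0 levels of Sgo1 in wild type and of Esco2 in both genotypes lay under the 8.72 of the filter, as did P0 group means of Cdc25c and Ndc80, so the size of these 4 folds is uncertain. Sgo2a, the second shugoshin, had levels of 9.51, 9.34 and 9.79 (P0 wild type), 9.24, 10.06 and 10.06 (P0 knockout), 10.90, 10.75 and 10.80 (P5 wild type) and 10, 11.07 and 10.59 (P5 knockout). It rose by 1.28 (SE 0.27, adjusted p = 0.00645) in wild type, and its knockout difference of 0.77 (SE 0.27, adjusted p = 0.0913) did not pass, with P5 knockout sample 1 inside the P0 range and an adjusted p of 0.0366 without that sample. In wild type the call was lost without P0 wild-type samples 1 and 2 together (1.03, adjusted p = 0.074).

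All 9 centromere and kinetochore genes rose in both genotypes, with medians of 1.82 and 1.6 and ranges of 1.02 to 2.32 in wild type and 0.86 to 1.98 in knockout. Cenpa, the histone H3 variant that defines the centromere, had levels of 9.60, 10.27 and 10.18 (P0 wild type), 10.10, 10.50 and 10.79 (P0 knockout), 12.07, 12.15 and 11.96 (P5 wild type) and 12.09, 12.20 and 12.24 (P5 knockout). It rose by 2.04 (SE 0.20, adjusted p = 2.52e-05) in wild type and 1.71 (SE 0.20, adjusted p = 0.000123) in knockout. Cenpf, a large protein of the outer kinetochore, had levels of 10.50, 9.80 and 10.55 (P0 wild type), 9.97, 10.43 and 10.47 (P0 knockout), 12.09, 12.07 and 12.15 (P5 wild type) and 12.22, 12.18 and 12.14 (P5 knockout), and rose by 1.82 (SE 0.19, adjusted p = 5.14e-05) and 1.89 (SE 0.19, adjusted p = 5.78e-05) in the same order. The 6 P5 samples of Cenpf lay within 12.07 and 12.22, while its P0 samples ran from 9.80 to 10.55.

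The 4 subunits of the NDC80 complex, which binds the ends of spindle microtubules, rose together. Ndc80 rose by 2.32 (SE 0.36, adjusted p = 0.00107) in wild type and 1.6 (SE 0.36, adjusted p = 0.0133) in knockout, Nuf2 by 2 (SE 0.23, adjusted p = 8.38e-05) and 1.98 (SE 0.23, adjusted p = 0.000118), Spc24 by 1.6 (SE 0.30, adjusted p = 0.00328) and 1.73 (SE 0.30, adjusted p = 0.00266), and Spc25 by 1.83 (SE 0.22, adjusted p = 0.000141) and 1.45 (SE 0.22, adjusted p = 0.000955). For each of the 4, the lowest P5 sample was above the highest P0 sample. A dimmer Spc25 probe set above the filter, with a mean level of 8.87, differed by only 0.28 in wild type and 0.58 in knockout. The knockout call of Ndc80 was lost without P5 knockout sample 2 (1.43, adjusted p = 0.0718). Cenpe, the kinetochore motor that carries chromosomes to the metaphase plate, lay between 9.09 and 9.59 at P0 and between 10.62 and 10.93 at P5. Cenph and Cenpk, subunits of the inner kinetochore, showed the weakest rises of this group. In wild type they stood at 1.02 (SE 0.23, adjusted p = 0.00957) and 1.20 (SE 0.39, adjusted p = 0.0475), and the wild-type call of Cenpk was kept in 11 of 24 alternatives, its difference lying between 0.84 and 1.65, and in 4 of the 12 that left out a sample. In knockout Cenpk was kept in 18 of 24 and Cenph in 18 of 23, both lost without P0 knockout sample 1 or 3 (adjusted p = 0.0988 and 0.123 for Cenpk, 0.1 and 0.0626 for Cenph) and without P5 knockout sample 2 or 3 (0.146 and 0.0753 for Cenpk, 0.136 and 0.0935 for Cenph). Cenpk was also lost there without P5 knockout sample 1 (0.0532) or P5 wild-type sample 3 (0.0511). In wild type Cenph was lost without P0 wild-type samples 1 and 2 together (0.0738).

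The chromosomal passenger complex joins the kinase Aurora B to 3 partners and corrects faulty attachments. All 4 genes rose in both genotypes. Birc5 (survivin) had levels of 8.93, 10.27 and 9.76 (P0 wild type), 9.74, 10.53 and 10.65 (P0 knockout), 12.13, 12.15 and 11.92 (P5 wild type) and 11.77, 12.27 and 12.25 (P5 knockout), with P0 wild-type sample 1 the lowest, and rose by 2.41 (SE 0.30, adjusted p = 0.000193) in wild type and 1.79 (SE 0.30, adjusted p = 0.00217) in knockout. Cdca8 (borealin) had levels of 10.48, 11.18 and 10.83 (P0 wild type), 11.05, 11.51 and 11.37 (P0 knockout), 12.69, 12.67 and 12.64 (P5 wild type) and 12.54, 12.89 and 12.79 (P5 knockout). It rose by 1.84 (SE 0.18, adjusted p = 2.52e-05) and 1.43 (SE 0.18, adjusted p = 0.000206) in the same order, and its 3 P5 wild-type samples differed by no more than 0.1. Aurkb, the kinase itself, rose by 1.49 (SE 0.27, adjusted p = 0.00283) in wild type and 1.16 (SE 0.27, adjusted p = 0.0154) in knockout, and Incenp, its scaffold, by 1.09 (SE 0.16, adjusted p = 0.000739) and 0.94 (SE 0.16, adjusted p = 0.00249). The knockout call of Aurkb was lost without P5 knockout sample 2 (adjusted p = 0.0527) or 3 (adjusted p = 0.0637).

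Spindle motors and assembly factors rose in 5 of 5 genes in both genotypes. Nusap1, which bundles spindle microtubules near chromosomes, had levels of 10.28, 10.71 and 10.70 (P0 wild type), 10.50, 10.96 and 10.86 (P0 knockout), 12.21, 12.14 and 12.10 (P5 wild type) and 12.22, 12.36 and 12.22 (P5 knockout), and rose by 1.59 (SE 0.15, adjusted p = 2.74e-05) in wild type and 1.49 (SE 0.15, adjusted p = 6.51e-05) in knockout. Tpx2, which targets Aurora A to the spindle, had levels of 9.73, 10.09 and 10.32 (P0 wild type), 10.05, 10.11 and 10.12 (P0 knockout), 11.81, 12 and 12.63 (P5 wild type) and 11.73, 12.12 and 12.26 (P5 knockout). It rose by 2.10 (SE 0.21, adjusted p = 3.92e-05) and 1.94 (SE 0.21, adjusted p = 0.000106) in the same order, while a dimmer probe set with a mean level of 8.84 differed by -0.41 and -0.12. Kif11, the motor that pushes spindle poles apart, lay between 9.22 and 10.44 at P0 and between 11.11 and 11.49 at P5. Kif2c, which takes microtubules apart at kinetochores, lay between 8.88 and 9.91 and then between 10.65 and 11.12. Kif4, a motor of chromosome arms, rose least of the 5, by 0.95 (SE 0.20, adjusted p = 0.00606) in wild type and 0.94 (SE 0.20, adjusted p = 0.00899) in knockout, from between 9.34 and 10.27 to between 10.35 and 10.80.

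Midzone and cytokinesis genes rose in 6 of 6 cases in both genotypes, with medians of 1.49 and 1.43. Ect2, the exchange factor that activates RhoA at the cleavage furrow, had levels of 9.69, 9.72 and 10.23 (P0 wild type), 10.06, 9.59 and 10.17 (P0 knockout), 11.33, 11.44 and 11.55 (P5 wild type) and 11.89, 11.97 and 11.83 (P5 knockout). Its rise was 1.56 (SE 0.18, adjusted p = 0.000112) in wild type and 1.96 (SE 0.18, adjusted p = 2.57e-05) in knockout. Kif20a, a motor of the central spindle, had levels of 9, 8.98 and 8.91 (P0 wild type), 8.75, 8.88 and 9.02 (P0 knockout), 10.26, 10.44 and 10.43 (P5 wild type) and 10.15, 10.30 and 10.21 (P5 knockout), and rose by 1.42 (SE 0.17, adjusted p = 0.000141) and 1.34 (SE 0.17, adjusted p = 0.000255) in the same order. Among P0 samples Kif20a stayed within 8.75 and 9.02, the narrow end of this set. Anln (anillin), the scaffold of the contractile ring, lay between 8.99 and 9.87 at P0 and between 10.98 and 11.40 at P5, and Kif23, a motor of the central spindle, between 8.94 and 9.82 and then between 10.92 and 11.46. Prc1, which bundles midzone microtubules, rose by 0.98 (SE 0.17, adjusted p = 0.00247) in wild type. Racgap1, the partner of Kif23, rose by 0.74 (SE 0.14, adjusted p = 0.00384) in wild type and 0.75 (SE 0.14, adjusted p = 0.0046) in knockout.

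Chromosome structure genes rose in 5 of 5 cases in both genotypes. Top2a, the topoisomerase that untangles sister chromatids, had levels of 11.47, 11.67 and 11.66 (P0 wild type), 11.32, 11.83 and 11.25 (P0 knockout), 13.53, 13.54 and 13.67 (P5 wild type) and 13.62, 13.79 and 13.57 (P5 knockout). It rose by 1.98 (SE 0.15, adjusted p = 5.03e-06) in wild type and 2.19 (SE 0.15, adjusted p = 2.73e-06) in knockout, and its P5 samples lay within 13.53 and 13.79. A dimmer Top2a probe set above the filter, with a mean level of 9.79, differed by only 0.60 in wild type and 1.01 in knockout. Ncapg, a subunit of condensin I, had levels of 9.38, 9.04 and 8.99 (P0 wild type), 8.99, 9.16 and 9 (P0 knockout), 10.64, 10.55 and 10.89 (P5 wild type) and 10.68, 10.84 and 10.57 (P5 knockout), and rose by 1.55 (SE 0.18, adjusted p = 9.67e-05) and 1.64 (SE 0.18, adjusted p = 9.07e-05) in the same order. Smc2 and Smc4, the ATPases of condensin, rose by 1.01 (SE 0.13, adjusted p = 0.000288) and 1.81 (SE 0.28, adjusted p = 0.000884) in wild type and by 1.42 (SE 0.13, adjusted p = 2.55e-05) and 2.11 (SE 0.28, adjusted p = 0.000341) in knockout. Ncaph, the subunit that bridges them, rose by 0.81 (SE 0.12, adjusted p = 0.000564) in wild type and 1.04 (SE 0.12, adjusted p = 0.000108) in knockout.

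**Figure D2:**
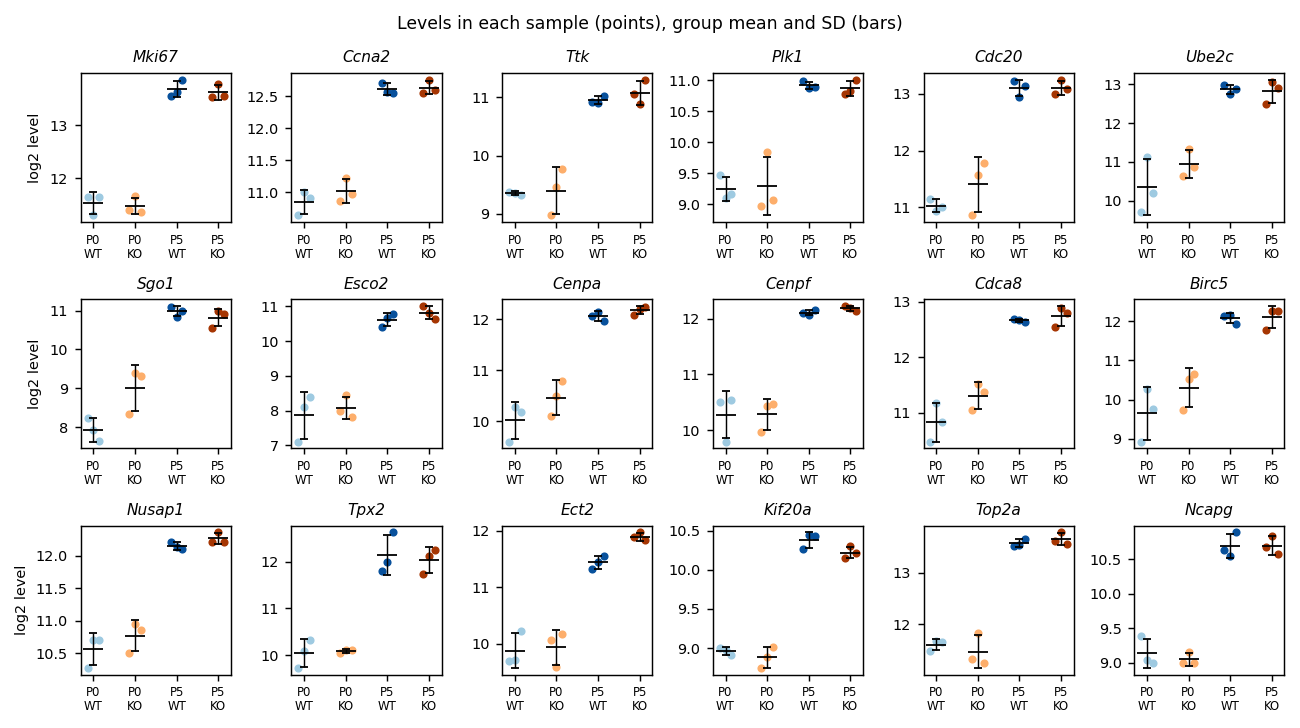
Log2 level of 18 genes, 2 per role group, in each sample (points) with the group mean and SD (bars, n = 3). WT is wild type and KO knockout. In all 18 panels the P5 points of both genotypes lie above the P0 points, as Mki67 does with 13.54 to 13.86 at P5 and 11.30 to 11.66 at P0.

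The size of the rise differed among the genes in a like way in the 2 genotypes, which share no samples in these comparisons. Across the 49 genes the wild-type and knockout differences had a Spearman correlation of 0.78 and a Pearson correlation of 0.79. This is a description over genes, which are not independent replicates, and the arrays were normalized together. The wild-type difference was the larger one in 33 genes (67.3%, beside 57% of all genes) and the knockout difference in 16. The 16 became 10 without P0 knockout sample 1 and 21 when either knockout sample 2 or wild-type sample 1 of P0 was left out. The difference between the 2 rises, tested as the genotype by age interaction, passed for 0 of 49 genes in limma, as for 0% of all genes, with 2 of 49 at an unadjusted p under 0.05 beside 4.94% of all genes. Sgo1 had the widest gap, at -1.24 (SE 0.38, adjusted p = 0.743), with its P0 wild-type levels under the 8.72 of the filter.

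**Figure D3:**
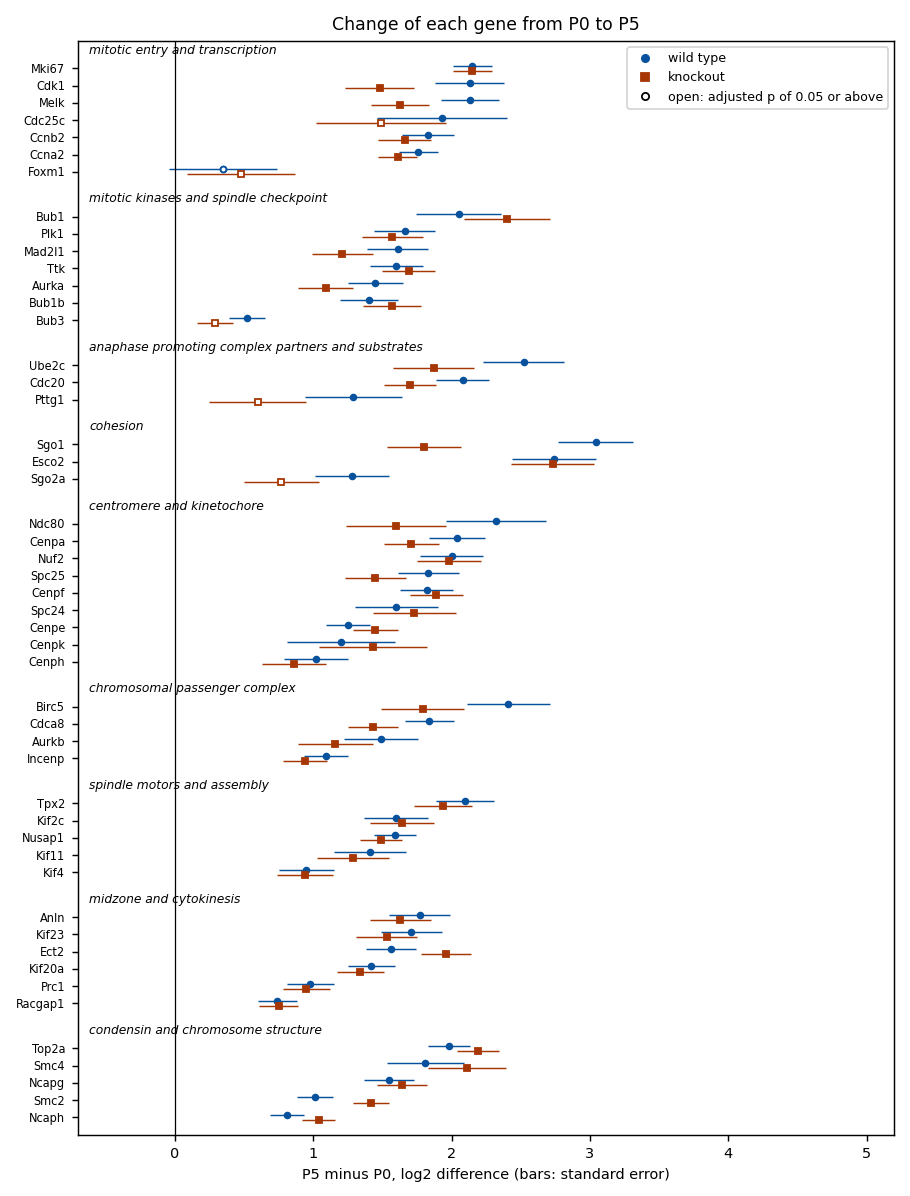
P5 minus P0 as a log2 difference for each of the 49 genes, in wild type (blue circles) and knockout (dark red squares), with the standard error as bars. Open symbols did not reach an adjusted p under 0.05. The points run from 0.29 for Bub3 in knockout to 3.04 for Sgo1 in wild type, and all lie right of 0.

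Further probe sets gave the same direction in most cases, though not always a like size. Besides the chosen ones, 33 of the genes had 60 other probe sets, of which 32 lay above the filter. Of these 32, 29 were higher at P5 in both genotypes. The exceptions were 2 of Bub3 and 1 of Tpx2. Of the 28 below the filter 19 were higher in both genotypes.

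Other genes of mitosis, taken from whole lists by function, changed less evenly. Of 30 tested genes of the spindle, centrosome and cytokinesis, 22 rose in wild type and 23 in knockout and 0 fell, with medians of 1.17 and 1.25. Aspm, a spindle pole protein of dividing neural progenitors, rose by 1.88 (SE 0.14, adjusted p = 4.2e-06) in wild type, the mitotic kinase Pbk by 1.83 (SE 0.17, adjusted p = 2.52e-05), and Cep55, which acts in the final cut between daughter cells, by 1.95 (SE 0.19, adjusted p = 3.24e-05). Of 29 further kinetochore and centromere genes 11 rose in wild type, among them Knstrn at 1.33 (SE 0.17, adjusted p = 0.000244), Cenpp at 1.69 (SE 0.31, adjusted p = 0.00292) and Knl1 at 1.26 (SE 0.24, adjusted p = 0.00324). In knockout 8 rose and 1 fell, the inner kinetochore gene Cenpt at -0.59 (SE 0.15, adjusted p = 0.0234). This list's median, 0.45 in wild type and 0.39 in knockout, was below that of the 9 kinetochore genes above.

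Most genes of complexes that also work outside mitosis did not pass. Of 14 core subunits of the anaphase promoting complex 3 rose in wild type and 0 in knockout, with medians of 0.02 and 0.06, while its mitotic activator Cdc20 and its enzyme Ube2c rose more than 3-fold in both genotypes. The 3 were Anapc16 at 0.74 (SE 0.20, adjusted p = 0.0195), Cdc26 at 0.54 (SE 0.17, adjusted p = 0.0359) and Anapc11 at 0.92 (SE 0.30, adjusted p = 0.0491). Of 14 genes of cohesin, its loaders and separase, 2 rose in each genotype: Cdca5 (sororin), which holds cohesin on replicated DNA, at 1.80 (SE 0.25, adjusted p = 0.000511) in wild type, and Espl1 (separase) at 0.78 (SE 0.22, adjusted p = 0.0254). The ring subunits and loaders did not pass, and the list's median was 0.12 in wild type and 0.35 in knockout. Of 4 other condensin genes 2 rose in each genotype, Ncapg2 of condensin II at 1.49 (SE 0.25, adjusted p = 0.00153) and Ncapd2 of condensin I at 0.79 (SE 0.14, adjusted p = 0.0024) in wild type.

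Of 16 regulators of mitotic entry and exit 7 rose and 1 fell in wild type, and 4 rose in knockout. Cks2, a small partner of Cdk1, rose by 2.35 (SE 0.32, adjusted p = 0.000403) in wild type, Fbxo5 (Emi1), an inhibitor of the anaphase promoting complex, by 1.20 (SE 0.19, adjusted p = 0.00125), and Cks1b by 1.43 (SE 0.28, adjusted p = 0.00422). Arpp19, an inhibitor of the phosphatase PP2A, was the gene that fell, at -0.55 (SE 0.16, adjusted p = 0.0303). DNA replication genes rose in 23 of 31 cases in wild type and 19 in knockout, with medians of 0.94 and 0.89, among them Mcm7 at 1.32 (SE 0.12, adjusted p = 1.64e-05), Uhrf1 at 2.65 (SE 0.26, adjusted p = 3.4e-05) and Rrm2 at 1.66 (SE 0.17, adjusted p = 3.92e-05). No test was run of the difference between this list and the mitotic genes.

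Cyclins and kinases of the early cell cycle rose in 5 of 8 cases in both genotypes. Ccnd2, cyclin D2, rose by 2.82 (SE 0.19, adjusted p = 2.14e-06) in wild type, Cdk4 by 1.33 (SE 0.18, adjusted p = 0.000385) and Ccnd1, cyclin D1, by 1.61 (SE 0.27, adjusted p = 0.0018). Of 9 tested inhibitors and genes of cell cycle exit 4 rose in wild type, 3 in knockout and 0 fell. Among them were the anti-proliferative gene Btg1 at 0.59 (SE 0.11, adjusted p = 0.00354), Cdkn1b (p27), which cells carry as they stop dividing, at 1.46 (SE 0.28, adjusted p = 0.00361), and Cdkn2c (p18) at 1.20 (SE 0.28, adjusted p = 0.0102).

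**Figure D4:**
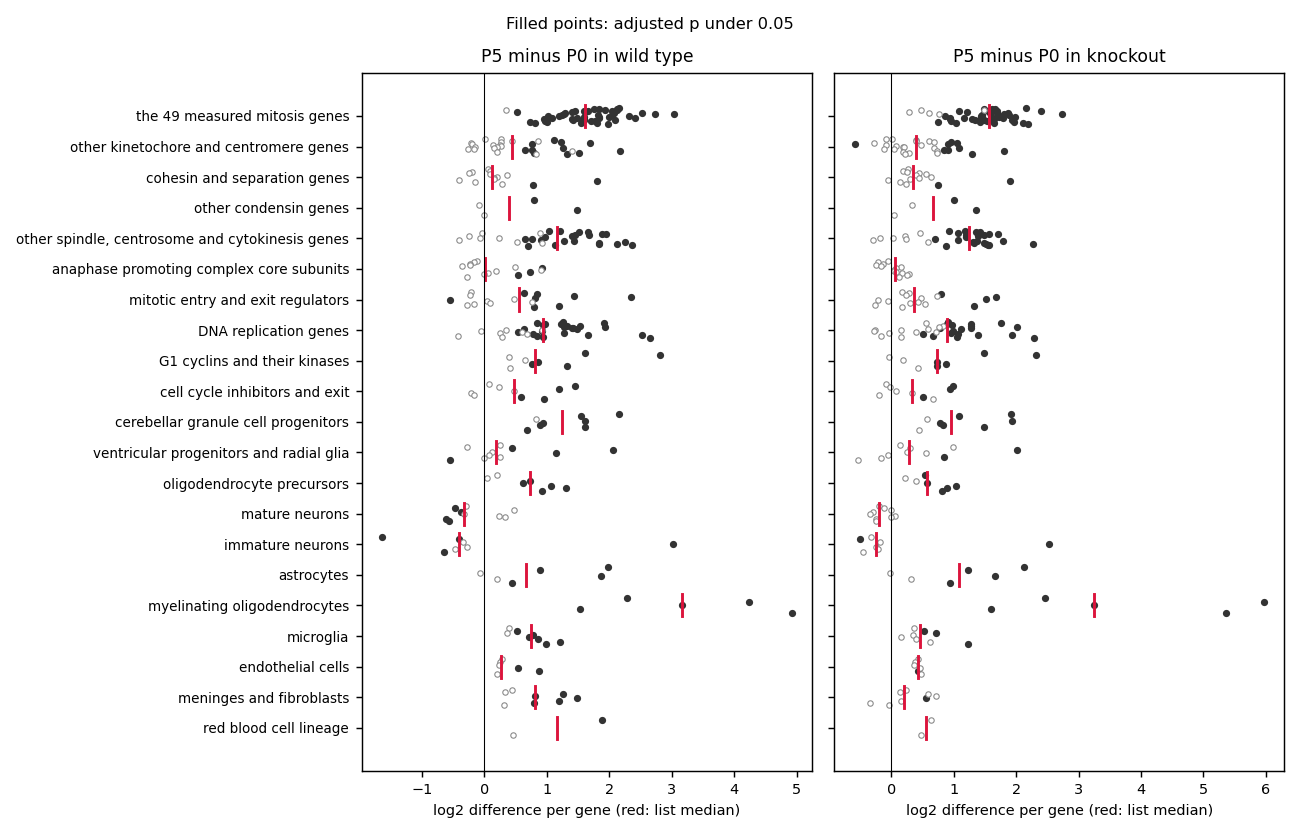
P5 minus P0 as a log2 difference per gene for the 49 mitotic genes and for the other lists, in wild type (left) and knockout (right). Filled points reached an adjusted p under 0.05 and red bars are list medians: 1.61 and 1.57 for the mitotic genes, 0.94 and 0.89 for DNA replication, 0.02 and 0.06 for core subunits of the anaphase promoting complex.

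Markers of cell types moved with age as well, and their part in the rise of the mitotic genes was not tested. Markers of cerebellar granule cell progenitors rose in 7 of 8 cases in wild type and 6 in knockout, with medians of 1.25 and 0.95. Atoh1, the factor that defines these progenitors, rose by 2.16 (SE 0.18, adjusted p = 1.33e-05) in wild type, and the sonic hedgehog effector Gli2 by 1.62 (SE 0.22, adjusted p = 0.000345). Ccnd1 stands in this list as well as among the early cyclins. The list's summed signal was 28213 to 43131 (wild type) and 35475 to 38754 (knockout) at P0, then 67707 to 72308 and 68832 to 70667 at P5. Markers of oligodendrocyte precursors rose in 5 of 7 cases in each genotype, with summed signals of 39344 to 57989, 49868 to 55792, 76786 to 79377 and 74686 to 77836 in the same order of groups. Ventricular progenitors and radial glia had medians of only 0.19 and 0.28, with 3 of 10 rising in wild type and 2 in knockout, and 1 falling in wild type (169124 to 195368, 185481 to 190802, 201089 to 211271 and 205125 to 213680).

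Markers of cell types outside the neural lineage that could also divide had wild-type list medians of 0.27 (endothelial cells), 0.75 (microglia), 0.81 (meninges and fibroblasts) and 1.17 (red blood cell lineage, from 2 genes at 0.46 and 1.88). Microglial markers rose in 6 of 8 cases in wild type and 3 in knockout (summed signal 17132 to 26256, 24443 to 31228, 30968 to 32675 and 37885 to 38768). Endothelial markers rose in 2 of 6 and 1 of 6 (10991 to 12528, 12805 to 14865, 17064 to 19494 and 16638 to 19030). Meningeal and fibroblast markers rose in 5 of 8 and 1 of 8, and their summed signal of 48771 to 71334 in P0 wild type lay below the 105827 to 127638 of P0 knockout. At P5 it was 125078 to 141558 in wild type and 127848 to 144031 in knockout. Of 8 red blood cell genes 5 were measured and 2 lay above the filter, with 1 rising in wild type (1486 to 2635, 2745 to 3642, 3662 to 4443 and 4119 to 5590). Mature neuron markers fell in 4 of 9 cases in wild type and 0 in knockout, with medians of -0.33 and -0.20 (347746 to 406906, 314903 to 352172, 296145 to 302647 and 276512 to 299545). Astrocyte markers rose in 4 of 6 cases in both genotypes (159073 to 174678, 144412 to 161666, 219578 to 221497 and 225670 to 234088). Markers of myelinating oligodendrocytes rose in 5 of 5, with medians of 3.16 and 3.25 (42536 to 56667, 36062 to 56115, 216527 to 234372 and 200063 to 228477). Immature neuron markers fell in 3 of 7 cases and rose in 1 in wild type, and fell in 1 and rose in 1 in knockout (341582 to 473004, 314745 to 448430, 270038 to 337741 and 296835 to 355505).

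Between the genotypes, 0 of the 49 genes passed at either age or in their average. At P0 the knockout minus wild-type difference had a median of 0.21, beside 0.07 over all genes. Of the 49 genes 37 lay above 0, as did 7445 of all 12600 genes. Leaving out wild-type sample 1 of that age gave a median of 0.11, leaving out knockout sample 2 gave 0.11 and leaving out knockout sample 1 gave 0.33, so its size rested on single samples. The threshold was passed by 0 of 49, as by 0.0238% of all genes (0.0159% higher and 0.00794% lower), and an unadjusted p under 0.05 was reached by 9 of 49 (18.4%, beside 16.1% of all genes). The highest values were Sgo1 at 1.08 (SE 0.27, adjusted p = 0.284), Ndc80 at 0.95 (SE 0.36, adjusted p = 0.29) and Birc5 at 0.65 (SE 0.30, adjusted p = 0.308), and the lowest Smc2 at -0.39 (SE 0.13, adjusted p = 0.287). All P0 wild-type levels of Sgo1 and Ndc80 lay under the 8.72 of the filter, so the size of both differences is uncertain. Every P0 knockout sample lay above every wild-type sample for Sgo1 alone (1 of 49, beside 6.65% of all genes) and below for Cenpe and Smc2 (2 of 49, beside 3.52%). Some other lists moved the same way at P0: meningeal and fibroblast markers had a median of 0.60 (8 of 8 above 0), microglial markers 0.64 (7 of 8) and DNA replication genes 0.22 (27 of 31). Others moved the opposite way: markers of myelinating oligodendrocytes had a median of -0.30 (0 of 5 above 0), cohesin and separation genes -0.20 (3 of 14) and mature neuron markers -0.17 (2 of 9). In these lists 0 genes passed the threshold. The part of these lists in the differences of the mitotic genes was not tested. The median half-width of a gene's 95% interval was 0.46, and for 40 of the 49 genes the interval stayed within 1 of 0. These intervals use 1 spread per gene over all 4 groups, and P0 samples spread more than P5 samples. At P0 they can thus be too narrow to exclude a 2-fold difference.

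At P5 the median difference was 0.03, and 0 of 49 passed, as did 0.00794% of all genes. The median was -0.03 without P5 knockout sample 2 (22 of 49 genes above 0), 0.10 without P5 knockout sample 1 (38 of 49), 0 when wild-type sample 2 was left out and 0.06 when wild-type sample 1 or 3 was, so it had no settled sign. Differences ran from -0.27 for Sgo2a to 0.45 for Ect2, each at an adjusted p of 1, and 2 of 49 had an unadjusted p under 0.05, beside 1.85% of all genes. For 46 of the 49 the interval stayed within 1 of 0. Every P5 knockout sample was above every P5 wild-type sample for Kif2c, Kif4, Nusap1, Ect2 and Ncaph (5 of 49, beside 7.68% of all genes) and below for 0 of 49 (beside 5.25%). Averaged over both ages the median was 0.13, with 0 of 49 called, beside 0.0238% of all genes (0.00794% higher and 0.0159% lower), and 5 of 49 at an unadjusted p under 0.05 (10.2%, beside 8.63%).

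**Figure D5:**
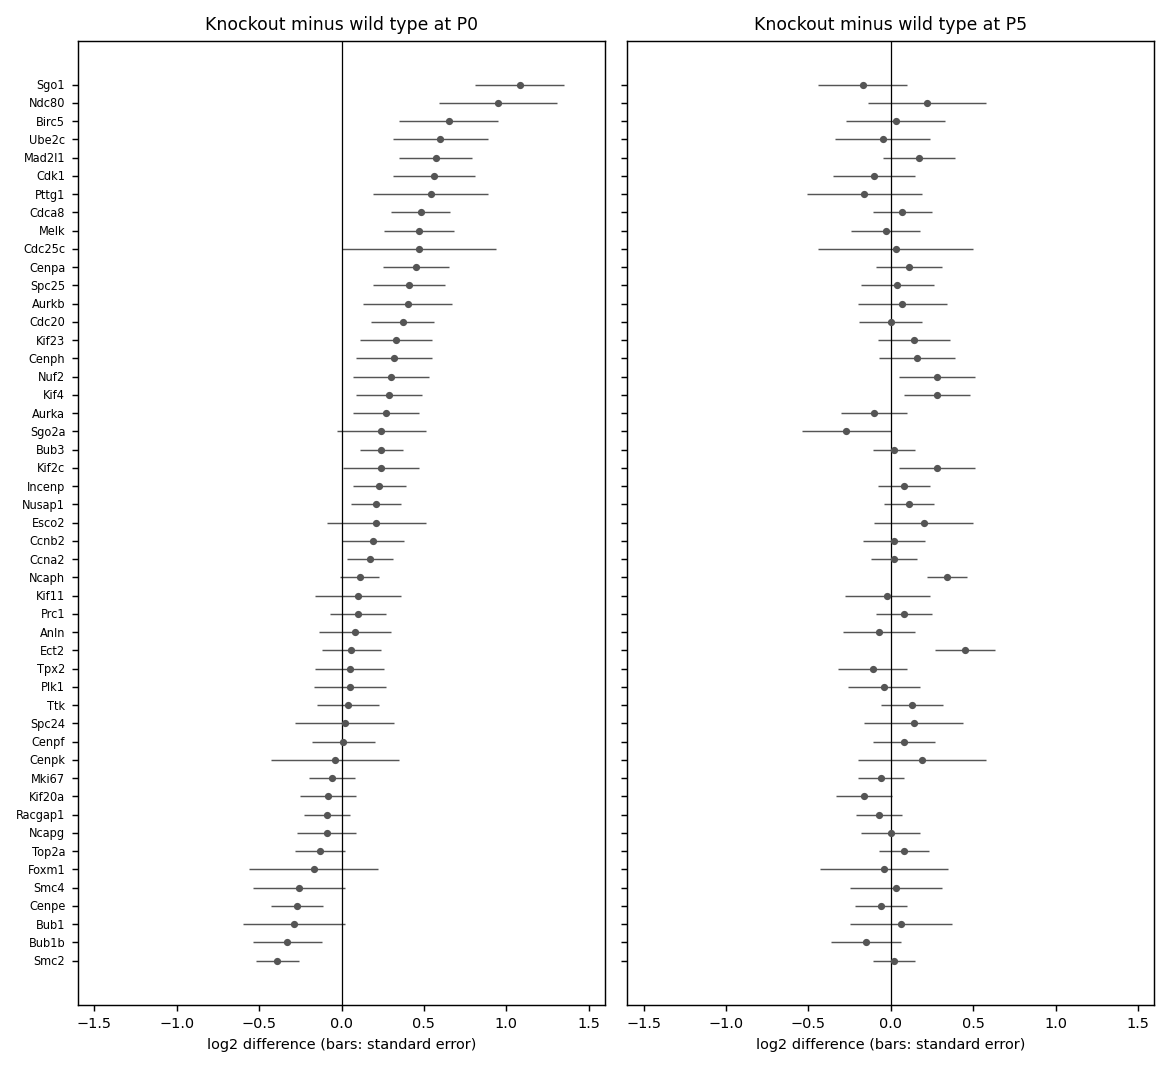
Knockout minus wild type as a log2 difference with its standard error for each of the 49 genes at P0 (left) and P5 (right), in the order of the P0 values. At P0 the points run from -0.39 for Smc2 to 1.08 for Sgo1, and at P5 from -0.27 to 0.45 around a median of 0.03.

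The number of genes called at P0 depended on P0 wild-type sample 2. Without it 8 of the 49 genes passed (16.3%), 7 higher in knockout and 1 lower, but so did 21.3% of all genes, 14.6% higher and 6.71% lower. The 7 were Cdk1, Mad2l1, Ube2c, Sgo1, Ndc80, Birc5 and Cdca8, and the 1 was Smc2. Sgo1 and Ndc80 among them were dim at P0. The share among the mitotic genes was no larger than that among all genes. In the average over both ages 1 of 49 passed without that sample, Mad2l1 at 0.52 (adjusted p = 0.0259), beside 5.9% of all genes, of which 4.48% higher and 1.42% lower. Without P0 wild-type samples 1 and 2 together, 2 of 49 passed at P0, beside 4.51% of all genes.

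Facts of the whole series bear on these values as follows. The deposited signals had medians of 607 to 737 over the 12 arrays. The Grin3b probe set, a dim one, read 197.6 to 352.6 (wild type) and 31.4 to 96.9 (knockout) at P0, then 154.8 to 272.9 and 39.7 to 48.5 at P5, with a two-sided exact permutation p of 0.1 at each age, the smallest that 3 against 3 samples allow. All 9 genes listed as signs of neural tissue, among them Snap25, Tubb3, Gfap and the hindbrain and spinal cord gene Hoxb4, lay above the filter.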

How the data were processed

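Total RNA of 12 samples, 3 in each of 4 groups, was read on Affymetrix arrays. The authors deposited 1 series table of probe set values, each an intensity (linear signal). No source used here names the software behind them. With 2% trimmed at either end, every array had a mean signal of 2500.01, as a single scaling factor per array gives. Of 45101 probe sets 64 controls were left out, and 34945 of the others carry a single gene symbol in the platform annotation.

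Signals were transformed as log2(signal + 16) and quantile-normalized, since array medians spread over 0.272 on that scale. Probe sets with a mean under the 40th percentile (8.72) were left out, 1 probe set per gene was kept, by highest mean signal, and 12600 genes were fitted in limma 3.58.1 (R 4.3.3) with 1 mean per group and an intensity-dependent prior, giving 8 residual and 5.59 prior degrees of freedom. There were 6 comparisons: the genotypes at each age and on average, the ages within each genotype, and the interaction. Benjamini-Hochberg adjusted p-values under 0.05 over all genes were called. The fit takes 1 spread per gene over all 4 groups, although P0 samples spread more than P5 samples. In simulated data with each group's spread as estimated from its 3 samples, comparisons that involve P0 made a larger share of false calls than the threshold names. Their adjusted p-values can thus be too small. By how much in the real data is not known, since a spread estimated from 3 samples is itself uncertain. With 3 arrays per group, their number limits the precision. Marker lists were summed as signals after normalization. Motif counts used the first RefSeq window listed for a gene.

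The members and lists were chosen with earlier results of these data known. Values in every sample are given for the 2 genes of each role group with the smallest p in wild type and for genes not called in both genotypes. The rule also asked for them for every gene above 0, which took in all 49. The others are given by ranges or differences, a change made after the values were seen. Of each other pathway list up to 3 called genes with the smallest p and up to 2 called the opposite way are named. Cenpt, Atoh1 and Gli2 were chosen after their values were seen. Same-numbered samples of different groups had correlations of their deviations from -0.13 to 0.42, above 0.1 in 4 of 18 pairs. The highest were between wild type and knockout at P0, 0.42 for samples 1 and 0.38 for samples 2, with 0.06 for samples 3. Wild-type sample 1 with knockout sample 2 gave -0.30 there, and wild-type sample 2 with knockout sample 1 gave -0.42. The numbers were not taken as pairs. Whether same-numbered P0 samples shared a step was not tested. Alternatives covered scaling, pseudocount, filter, probe set choice, variance model, samples in the fit, the replicate block and leaving out samples.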

Additional observations from a re-analysis of the deposited data

How the results depend on the processing

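The P5 minus P0 counts of the 49 genes held under all 24 alternatives within 1.5 times, but the share of all genes called moved more. With array weights that share was 47.8% in wild type and 16.7% in knockout, beside 19.4% and 10.5% in the main fit. Medians over the genes were 1.55 to 1.77 in wild type and 1.42 to 1.65 in knockout. With the filter at the 60th percentile only 33 of the 49 genes were tested. Of these 33 passed in wild type and 31 in knockout, beside 22.8% and 11.7% of all genes. Rises passed in every alternative in which the gene was tested for 42 of 49 genes in wild type and 40 of 49 in knockout. Leaving out each sample in turn gave 44 to 48 genes called in wild type, beside 9.52% to 38.3% of all genes. In knockout it gave 40 to 45, beside 5.18% to 15.6% of all genes. For knockout minus wild type at P0, leaving out each sample gave 0 to 8 genes (beside 0.00794% to 21.3% of all genes). For the average it gave 0 to 1 (beside 0.00794% to 5.9%). Array weights, by which noisier arrays counted for less, let 12 genes pass at P0 (beside 24.5% of all genes), 9 in the average (16.2%) and 6 in the interaction (12.1%). P0 wild-type samples 1, 2 and 3 then had weights of 0.36, 0.19 and 2.45. Without P0 wild-type samples 1 and 2, 2 genes passed at P0, with the spread of the lone P0 wild-type sample borrowed from the other groups. The cause was not tested. Foxm1 in knockout went from -0.10 without P0 knockout sample 1 to 0.78 without P0 knockout sample 3. Same-numbered samples were not taken as pairs. With the replicate block 48 genes passed in wild type (beside 22.9% of all genes) and 44 in knockout (10.9%). Between the genotypes 0 passed, beside 0.00794% of all genes at either age and in the average. Signal over background limits Cdc25c, Sgo1, Esco2 and Ndc80 at P0.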
